A study of Mus musculus with 9 samples.

Results

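The genes described here are 10 mouse genes of lipoprotein assembly and high density lipoprotein (HDL) metabolism: Apoa1, Apoa2, Apoa4, Apob, Apoe, Apom, Mttp, Lcat, Pltp and Abca1. They were taken by name from 45513 genes in a count table of liver RNA, and all 10 were among the 12102 genes with enough counts to be tested. The livers came from C57BL/6 mice kept for 9 weeks on a high fat diet with B-LGND2, on a high fat diet with vehicle, or on a normal diet with vehicle, with 3 libraries in each group (below, B-LGND2 livers, high fat vehicle livers and normal diet livers). B-LGND2 is known here only by its code name, and the series title presents it as an estrogen receptor beta ligand. No group received B-LGND2 on normal diet. The sources used here give no dose, diet composition, sex or age.

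The liver packages triglyceride and cholesterol into very low density lipoprotein (VLDL) around apolipoprotein B, and microsomal triglyceride transfer protein (Mttp) loads lipid onto that protein as it is made. HDL forms when apolipoprotein A-I, the product of Apoa1, receives cholesterol and phospholipid from cells through the transporter Abca1. Lcat then esterifies the cholesterol on the particle, and Pltp moves phospholipid between particles.

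Levels are given as CPM, counts per 1000000 counts, on library sizes scaled by edgeR's TMM (trimmed mean of M-values) factors, and levels of different genes are set side by side only as TPM, a like scale after division by exon length. A gene is said to have risen or fallen where edgeR's quasi-likelihood test gave an adjusted p (Benjamini-Hochberg, over all genes tested) under 0.05. Such a p-value sets the difference between groups against the spread among these libraries only. An exact permutation test of 3 against 3 libraries cannot go below 0.1. Total counts ran from 5778978 to 10322972 per library. In B-LGND2 replicate 1 the level of a gene relative to its mean over the 9 libraries tracked its GC content (Spearman 0.521, against -0.262 to 0.0825 in the other libraries). In normal diet replicate 1 mitochondrially encoded genes took 12.7% of counts (3.69% to 6.12% in the others). In normal diet replicate 3 that relative level ran inversely with transcript length (Spearman -0.516, against -0.238 to 0.358 in the others). The first 2 of these 3 libraries were left out together in one alternative, which keeps normal diet replicate 3 as 1 of 2 normal diet libraries. Gene models of ribosomal RNA took 5.51% ± 1.04 of counts in B-LGND2 livers, 1.20% ± 0.275 in high fat vehicle livers and 3.42% ± 0.299 in normal diet livers (SD, n = 3 each). Without TMM scaling the median fold change of all genes moved to -0.18 on the log2 scale for B-LGND2 against vehicle and to 0.17 for high fat against normal diet.

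The 10 genes together took 8.24% ± 2.55 of all counts with B-LGND2, 5.74% ± 0.315 in high fat vehicle livers and 6.38% ± 0.565 on normal diet (SD, n = 3 each). The 3 B-LGND2 libraries held 11.2%, 6.62% and 6.92%, so the first of them carried most of the spread. Measured per length, Apoa1, Apoa2 and Apoe were the highest of the 10 genes in every group. In B-LGND2 livers Apoa1 averaged 44161 ± 20479 TPM, Apoa2 34578 ± 6756 TPM and Apoe 29366 ± 6969 TPM, and their libraries overlapped. The order in high fat vehicle livers was Apoe at 27159 ± 788 TPM, Apoa2 at 25364 ± 1193 TPM and Apoa1 at 21966 ± 2444 TPM, with Apoe and Apoa2 overlapping. On normal diet the order was Apoa2 at 28659.9 ± 6683 TPM, Apoa1 at 28505 ± 2280.5 TPM and Apoe at 21478 ± 2062 TPM. There Apoa2 overlapped both, and Apoa1 lay above Apoe in every library. These orders hold for the summed exon length, which is 2138 bases for Apoe, 1236 for Apoa1 and 537 for Apoa2. The longest transcripts have 1408, 1035 and 518 bases. Divided by those, Apoe would stand higher relative to Apoa1 and Apoa2, so the order among these genes depends on the length used. Lcat came next in every group, at 1416 ± 334 TPM with B-LGND2, 1237 ± 99 TPM in high fat vehicle livers and 992 ± 153 TPM on normal diet. Apob, Apoa4 and Apom followed between 182 and 706 TPM. By mean the order was Apoa4, Apob and Apom with B-LGND2, and Apob, Apoa4 and Apom in high fat vehicle livers. On normal diet it was Apob, Apom and Apoa4. Neighbours in the order of each group overlapped, except Apob and Apoa4 in high fat vehicle livers. Mttp, Abca1 and Pltp closed the order in each group, at 56.7, 21 and 8.63 TPM with B-LGND2, 89.3, 36.2 and 8.85 TPM in high fat vehicle livers, and 56.9, 16.9 and 6.21 TPM on normal diet.

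Apoa1 rose with B-LGND2, and it was the gene of the 10 that passed the test in that comparison. Apoa1 lies on chr9:46228580-46230466 of GRCm38, within a cluster that also holds Apoc3, Apoa4 and Apoa5. Its promoter is shown because the gene carries the main result, beside that of Apoc2, the cofactor of lipoprotein lipase, which rose in the same comparison. Both are RefSeq sequences of build GRCm38.p6, 5′ to 3′ on the strand of the gene, from 250 bases before to 50 bases after the start: chr9:46228380-46228679 on the plus strand for Apoa1 and chr7:19677892-19678191 on the minus strand for Apoc2. Capitals mark direct repeats of TGANC in Apoa1, with 3 letters between the copies at the first site and 2 at the next, and the nuclear receptor hexamer AGGTCA in Apoc2.
Apoa1: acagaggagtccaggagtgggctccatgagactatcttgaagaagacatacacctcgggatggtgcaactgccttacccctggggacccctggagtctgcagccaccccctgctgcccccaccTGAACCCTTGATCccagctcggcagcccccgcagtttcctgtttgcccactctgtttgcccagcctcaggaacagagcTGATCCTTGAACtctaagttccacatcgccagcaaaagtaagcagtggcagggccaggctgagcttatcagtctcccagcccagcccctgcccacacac
Apoc2: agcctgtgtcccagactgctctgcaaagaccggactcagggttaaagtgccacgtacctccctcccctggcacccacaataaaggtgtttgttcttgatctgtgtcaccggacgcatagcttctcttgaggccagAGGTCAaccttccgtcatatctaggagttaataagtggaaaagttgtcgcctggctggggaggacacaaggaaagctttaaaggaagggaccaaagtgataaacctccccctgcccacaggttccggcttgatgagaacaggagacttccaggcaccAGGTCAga

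All 10 genes had a promoter in the RefSeq table, and 12 promoters were searched on both strands, those of the 10 genes with Apoc2 and Apoa5. In Apoa1 the repeat of TGANC with 3 letters between the copies began at position -127 and that with 2 letters at -49, counted from the RefSeq start, which lies inside the GENCODE span of the gene given above, downstream of that annotation's start. These 2 patterns were chosen after the sequence had been seen. They were held by 1.12% and 1.26% of 32851 promoters of 300 bases, and 1 of the 12 promoters searched, that of Apoa1, held each. AGGTCA, which 16.3% of promoters hold, matched in Apoc2 at positions -115 and 43 and in none of the other 11. The estrogen response element, GGTCA and TGACC with 3 letters between them, held by 0.07% of promoters, matched in 0 of the 12, which says only that these letters are not in these windows. The patterns can overlap, since GGTCA and TGACC, its reverse complement, are part of several of them. TATAAA, held by 13.6% of promoters, matched in 4 of the 10: Apoa2, Apob, Pltp and Abca1.

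The comparison of B-LGND2 with vehicle, both on high fat diet, asks what the compound changed in liver RNA. Of the 10 genes, 1 rose and 0 fell, where 5.63% of all genes tested passed, 3.07% higher and 2.56% lower. The median fold change of the 10 was 0.41 on the log2 scale, against -0.0031 over all genes tested. An unadjusted p under 0.05 was reached by 4 of the 10, against 23.7% of all genes, and 4 of the 10 had libraries that did not overlap between the groups, against 33.6%. The DESeq2 Wald test passed 2 of the 10, against 9.28% of all genes.

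Apoa1 had 58029, 23799 and 20050.1 CPM with B-LGND2, against 11792, 12982 and 13719 CPM in high fat vehicle livers, and 22372.5, 17639 and 27916 CPM were measured on normal diet. Every B-LGND2 library was above every vehicle library on high fat diet, and B-LGND2 replicate 1 stood far above the other B-LGND2 libraries. The means were 33959.5 ± 20929 and 12831 ± 972 CPM (SD, n = 3 each), a 2.65-fold difference, or 1.40 ± 0.34 on the log2 scale (SE), with an adjusted p of 0.0283. Without B-LGND2 replicate 1 the value was 0.80 with an adjusted p of 0.12, and without B-LGND2 replicate 1 and normal diet replicate 1 it was 0.79 with 0.0706. The call was also lost when any of the 3 high fat vehicle libraries was left out (adjusted p 0.105, 0.106 and 0.084). Of all genes, 0.801% to 1.49% passed in those 3 settings and 1.08% without B-LGND2 replicate 1, against 5.63% with all libraries. The fold change of Apoa1 stayed between 1.34 and 1.45 with 1 high fat vehicle library left out. With offsets for transcript length and GC content it was 1.01 with an adjusted p of 0.0286, and it was 1.41 with ribosomal and mitochondrial genes removed.

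**Figure D1:**
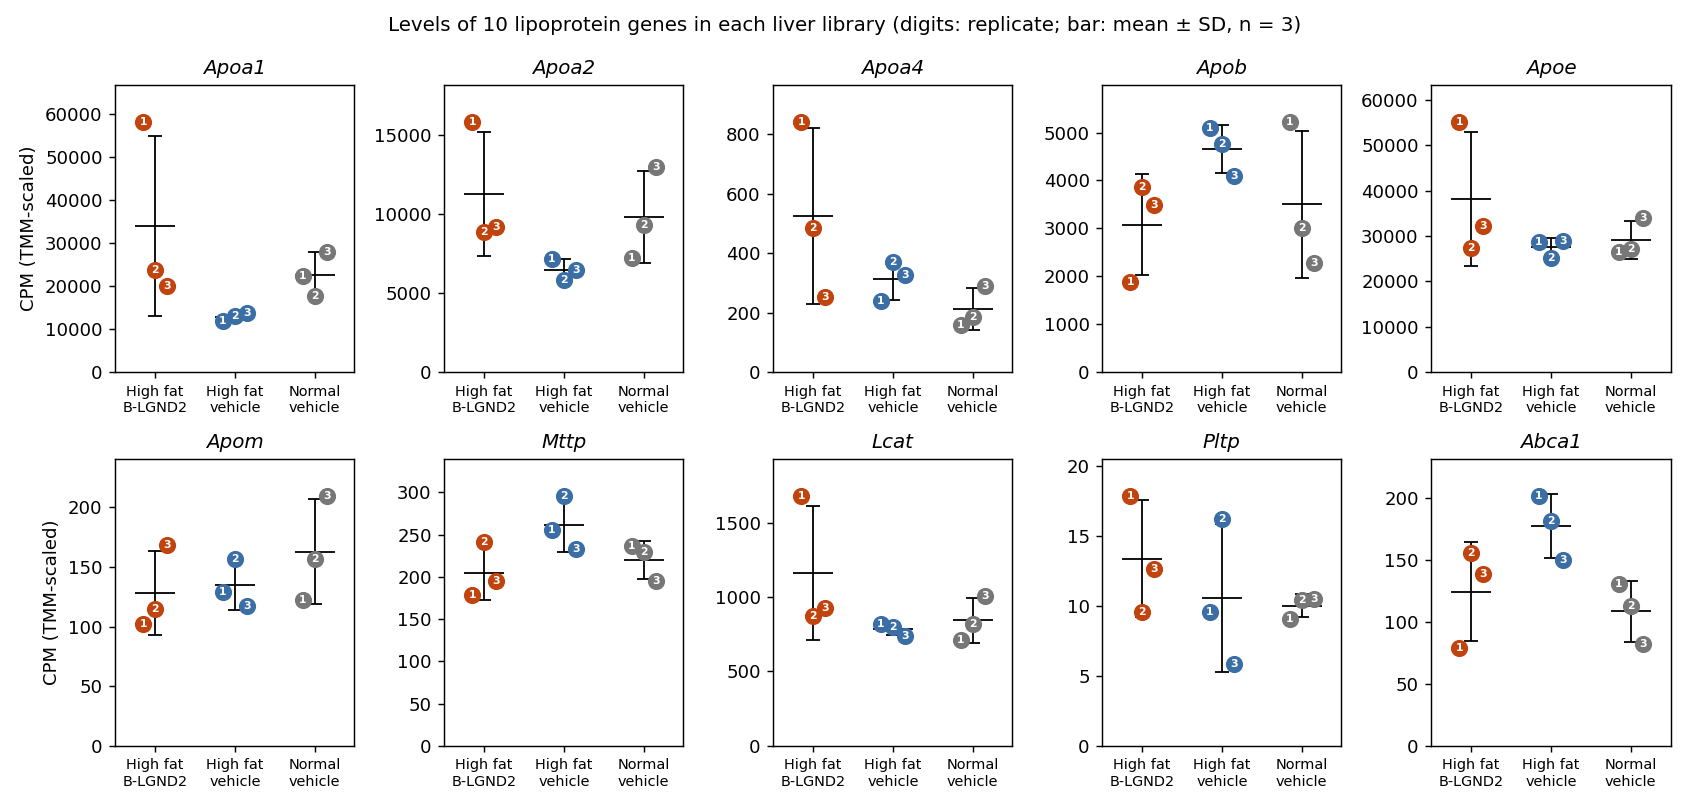
Level of each of the 10 genes (vertical axes, CPM on TMM-scaled library sizes, each from 0) in the 3 groups; points are libraries with the replicate number inside, and bars are the mean ± SD of 3. For Apoa1 all 3 B-LGND2 libraries (20050.1 to 58029 CPM) stand above the high fat vehicle libraries (11792 to 13719 CPM), and replicate 1 stands far above the other B-LGND2 libraries.

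**Figure D2:**
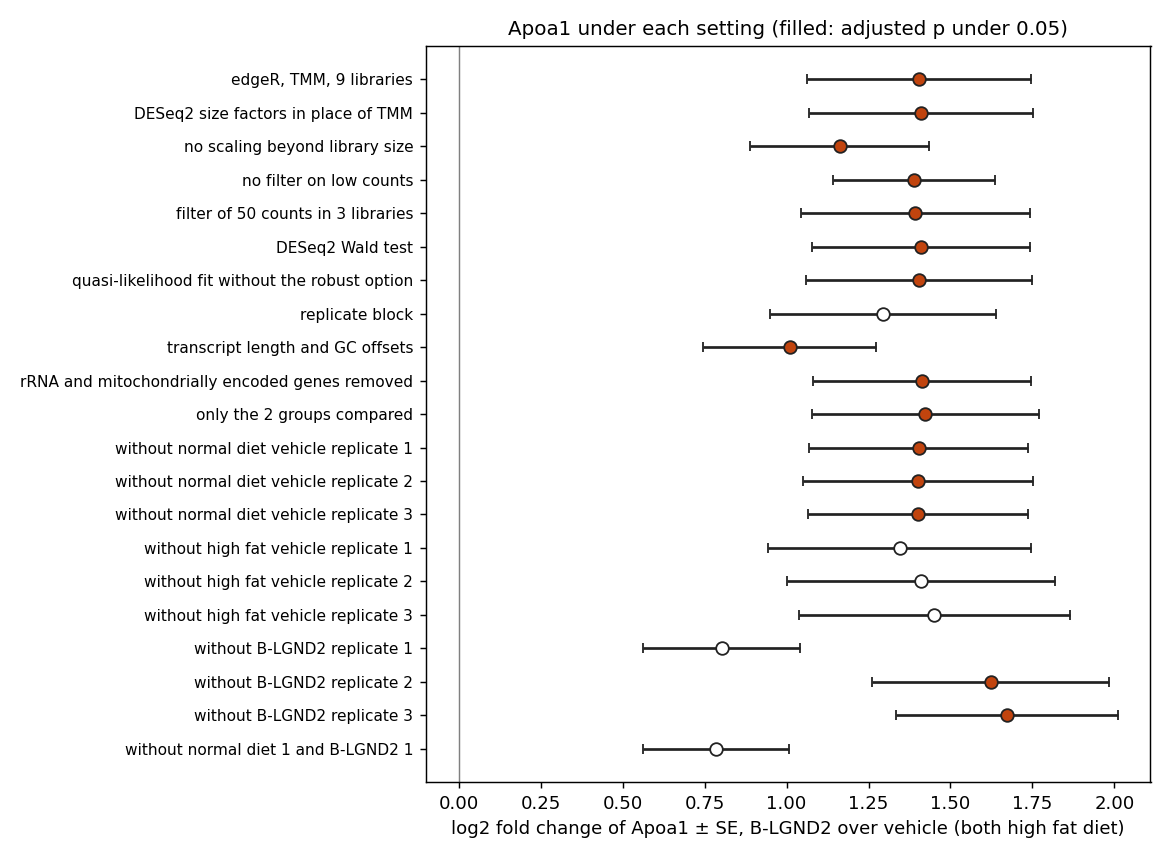
Fold change of Apoa1 for B-LGND2 over vehicle on high fat diet (horizontal axis, log2, ± SE) under each way of processing (rows); filled points have an adjusted p under 0.05. Every value is above 0, from 0.79 to 1.67, and 14 of the 20 alternatives keep the call.

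Apoa2, the other major HDL protein, had 15805, 8839.9 and 9179.6 CPM with B-LGND2, against 7130.3, 5799 and 6482 CPM with vehicle. The libraries did not overlap, but the difference of 0.80 ± 0.28 on the log2 scale (SE) had an adjusted p of 0.0961 and did not pass, and it was 0.51 with an adjusted p of 0.334 without B-LGND2 replicate 1 and 0.31 with length and GC offsets. DESeq2 gave Apoa2 an adjusted p of 0.0434, past the threshold. Apoa4, an apolipoprotein of chylomicrons and HDL, had 841, 485 and 252 CPM with B-LGND2 and 238, 371 and 325 CPM with vehicle, so that the groups overlapped. Its fold change was 0.76 ± 0.35 (log2, SE; adjusted p 0.205), and 0.27 with an adjusted p of 0.71 without B-LGND2 replicate 1. Apom encodes a carrier of sphingosine-1-phosphate on HDL. It had 102, 115 and 169 CPM with B-LGND2 and 129, 157 and 117 CPM with vehicle, and its fold change of -0.067 ± 0.25 (log2, SE) was within its error and was 0.10 without B-LGND2 replicate 1.

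The genes of VLDL assembly had lower mean levels with B-LGND2, and neither passed the test. Apob, the structural protein of VLDL, had 1884, 3863 and 3490.4 CPM with B-LGND2, against 5094, 4769.9 and 4102 CPM with vehicle. Its libraries did not overlap, and the log2 fold change was -0.60 ± 0.31 (SE; adjusted p 0.255), -0.31 with an adjusted p of 0.639 without B-LGND2 replicate 1 and -0.30 with length and GC offsets. Mttp had 179, 241 and 195 CPM with B-LGND2 and 255, 296 and 233 CPM with vehicle, overlapping between groups, with a log2 fold change of -0.35 ± 0.21 (SE; adjusted p 0.312). Without B-LGND2 replicate 1 the value of Mttp was -0.23 (adjusted p 0.609).

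Apoe, the ligand through which remnant particles bind receptors of the LDL receptor family, had 55101, 27446 and 32184.5 CPM with B-LGND2, against 28691, 25118 and 28856 CPM with vehicle. The groups overlapped, and the log2 fold change was 0.47 ± 0.27 (SE; adjusted p 0.301), and 0.14 with an adjusted p of 0.791 without B-LGND2 replicate 1. Apoa1 over Apoe, per length, was 1.82, 1.5 and 1.08 with B-LGND2, against 0.711, 0.894 and 0.822 with vehicle. That ratio did not overlap between these groups, so Apoa1 stood higher relative to Apoe with B-LGND2 than in high fat vehicle livers. On normal diet the ratio was 1.46, 1.13 and 1.42, within the range of the B-LGND2 livers. Apoa1 over Apoa2, per length, overlapped: 1.60, 1.17 and 0.949 with B-LGND2, against 0.718, 0.973 and 0.920 with vehicle.

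Lcat had 1678, 869 and 928 CPM with B-LGND2, against 818, 799 and 740.1 CPM with vehicle. These groups did not overlap, though B-LGND2 replicates 2 and 3 lay close to the highest vehicle library, and the log2 fold change was 0.56 ± 0.26 (SE; adjusted p 0.195). Without B-LGND2 replicate 1 it was 0.22 (adjusted p 0.625). Pltp was the lowest of the 10, with 42 to 154 counts per library. It had 17.8, 9.56 and 12.7 CPM with B-LGND2 and 9.565, 16.2 and 5.85 CPM with vehicle, and its log2 fold change of 0.35 ± 0.34 (SE; adjusted p 0.561) was about the size of its error. It ran from 0.048 to 0.80 as single libraries were left out. Of its 2562 exon bases 495 overlap Ctsa on the other strand, a gene with 8355 counts in all against 700 for Pltp. Without a stated strand setting reads there cannot be told apart. The same limit holds for Apoa4 and Mttp. Of the 1815 exon bases of Apoa4 (22564 counts), 632 overlap Gm10680 (42 counts) and 634 overlap Gm47528 (no count available) on the other strand. Of the 6206 of Mttp (13843 counts), 457 overlap Trmt10a (202 counts) and 132 overlap Gm43691 (18 counts). Abca1 had 79.2, 156 and 139 CPM with B-LGND2, against 202, 181 and 149.7 CPM with vehicle, overlapping, with a log2 fold change of -0.51 ± 0.26 (SE; adjusted p 0.244), and -0.24 with an adjusted p of 0.641 without B-LGND2 replicate 1.

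**Figure D3:**
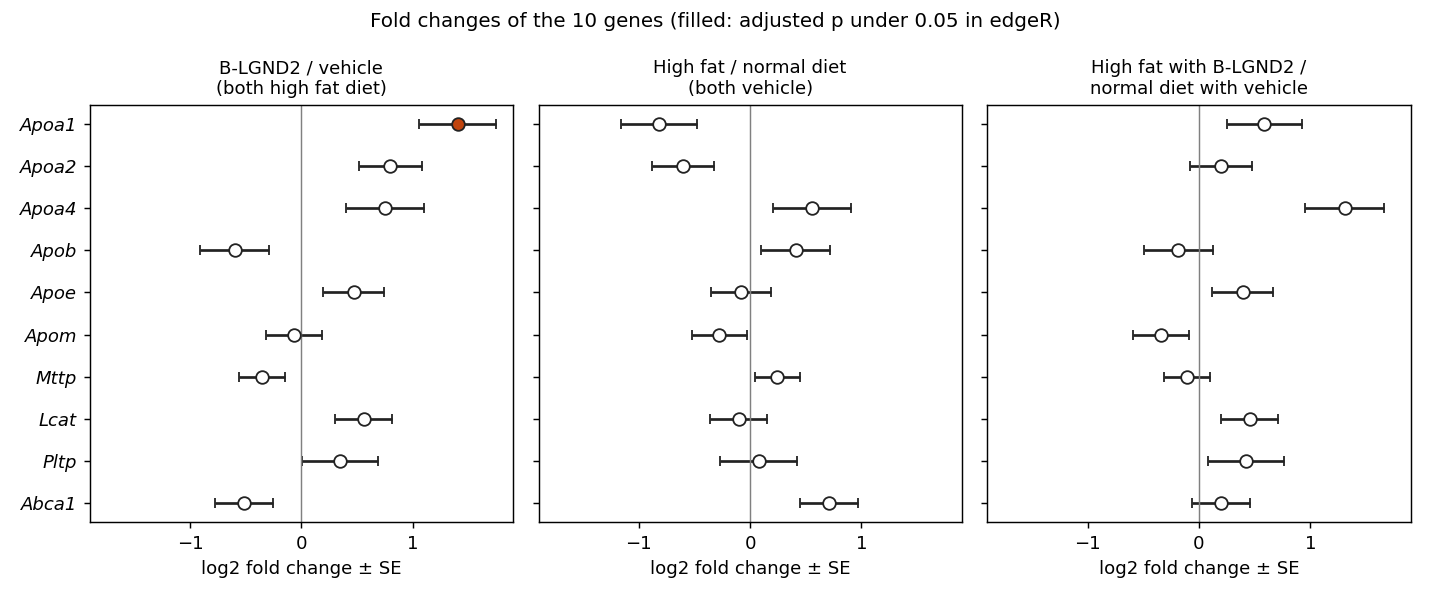
Fold change of each of the 10 genes (rows; horizontal axes, log2 ± SE from edgeR) for B-LGND2 against vehicle on high fat diet, high fat against normal diet with vehicle, and B-LGND2 livers against normal diet livers; filled points have an adjusted p under 0.05. Only Apoa1 in the first panel, at 1.40, is filled.

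The comparison of high fat with normal diet, both with vehicle, asks what the diet changed. None of the 10 genes passed edgeR's test, where 2.99% of all genes did, and 3 of the 10 had an unadjusted p under 0.05, against 22.4% of all genes. DESeq2 passed 0 of the 10, against 7.65% of all genes. Their median log2 fold change was -0.0027, against 0.0054 over all genes tested. Libraries did not overlap for 3 of the 10, against 30.1% of all genes: Abca1 was higher on high fat diet, and Apoa1 and Apoa2 were lower. The high fat vehicle libraries are those against which B-LGND2 was compared above, so the comparisons share them.

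On high fat diet with vehicle Apoa1 averaged 12831 ± 972 CPM, against 22642 ± 5144 CPM on normal diet (SD, n = 3 each). The log2 fold change was -0.82 ± 0.34 (SE) with an adjusted p of 0.165, and -0.64 with 0.495 without normal diet replicate 3. The smaller Apoa2 had 7130.3, 5799 and 6482 CPM on high fat diet and 7217, 9281 and 12982 CPM on normal diet, where the lowest library lay close to the high fat range. Its log2 fold change was -0.60 ± 0.28 (SE; adjusted p 0.214), -0.12 with length and GC offsets and -0.35 with an adjusted p of 0.663 without normal diet replicate 3. Abca1 had 202, 181 and 149.7 CPM on high fat diet, against 131, 113 and 82.2 CPM on normal diet. Its log2 fold change of 0.71 ± 0.26 (SE) had an adjusted p of 0.124, and was 0.28 with length and GC offsets and 0.54 with an adjusted p of 0.41 without normal diet replicate 3.

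Apob had 5094, 4769.9 and 4102 CPM on high fat diet and 5213, 2999.6 and 2283 CPM on normal diet, where replicate 1 was above every high fat library. The log2 fold change was 0.41 ± 0.31 (SE; adjusted p 0.456), and 0.82 with an adjusted p of 0.0693 without that library. It was 0.18 with an adjusted p of 0.87 without normal diet replicate 3, and 0.10 with 0.812 with length and GC offsets. Apoa4 had 238, 371 and 325 CPM on high fat diet, against 159, 187 and 291 CPM on normal diet, overlapping, with a log2 fold change of 0.55 ± 0.35 (SE; adjusted p 0.37), and 0.85 with 0.398 without normal diet replicate 3. The other 5 genes lay between -0.28 (Apom) and 0.25 (Mttp) on the log2 scale, with SEs of 0.21 to 0.34. Apoe had 27555 ± 2112 CPM on high fat diet and 29162 ± 4181 CPM on normal diet, and Lcat had 786 ± 40.6 CPM on high fat diet and 844 ± 151 CPM on normal diet (SD, n = 3 each). Their fold changes of -0.08 and -0.10 turned to 0.090 and 0.067 without TMM scaling. Pltp averaged 10.6 ± 5.26 CPM on high fat diet and 9.99 ± 0.821 CPM on normal diet.

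Without B-LGND2 replicate 1 and normal diet replicate 1, 4 of the 10 genes passed for diet, where 19.4% of all genes then did. Apoa1 (-0.84, adjusted p 0.0209) and Apoa2 (-0.80, 0.019) fell and Apob (0.80, 0.0183) and Abca1 (0.85, 0.0165) rose on high fat diet, on the log2 scale. This setting was chosen after the data had been seen, and normal diet replicate 3, the library with the inverse relation to length, is 1 of its 2 normal diet libraries. Without normal diet replicate 3 alone, 0 of the 10 passed, where 0.637% of all genes did. Leaving out normal diet replicate 1 alone passed 1 of the 10, Abca1 (0.86, adjusted p 0.0493), where 15% of all genes passed.

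Between B-LGND2 livers and normal diet livers, where diet and compound cannot be told apart, none of the 10 genes passed edgeR's test, where 2.93% of all genes did. An unadjusted p under 0.05 was reached by 1 of the 10, against 19.4% of all genes, and DESeq2 passed that gene, Apoa4, with an adjusted p of 0.00994, where it passed 5.45% of all genes. No gene of the 10 had groups without overlap, against 20.5% of all genes. Apoa4 had 841, 485 and 252 CPM with B-LGND2 on high fat diet and 159, 187 and 291 CPM on normal diet. The difference was 2.48-fold, or 1.31 ± 0.36 on the log2 scale (SE), with an adjusted p of 0.0599 in edgeR. It was 0.80 without B-LGND2 replicate 1, with an adjusted p of 0.259, and 1.64 without B-LGND2 replicate 3, with 0.0184. Apoa1 averaged 33959.5 ± 20929 CPM with B-LGND2 on high fat diet and 22642 ± 5144 CPM on normal diet (SD, n = 3 each), 0.58 on the log2 scale (adjusted p 0.353), and -0.04 without B-LGND2 replicate 1. The remaining 8 lay between -0.34 (Apom) and 0.46 (Lcat).

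Fold changes depended on transcript length across all protein-coding genes tested, and the 10 genes span that range from Apoa2, with a longest transcript of 518 bases, to Apob, with 13934. For B-LGND2 against vehicle the median log2 fold change was 0.37 in the shortest of 10 length classes and -0.24 in the longest. For high fat against normal diet it was -0.52 in the shortest class and 0.36 in the longest. The correlation across 10824 genes, which are not independent replicates, was -0.280 for B-LGND2 against vehicle and 0.441 for diet (Spearman, both descriptions). With length and GC offsets the fold changes of Apoa2, Apob and Abca1 were nearer 0 in both of these comparisons, and that of Apoa1 for B-LGND2 kept its call. Offsets left Lcat at 0.26, Apoe at 0.20 and Apom at -0.35 for B-LGND2 against vehicle.

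**Figure D4:**
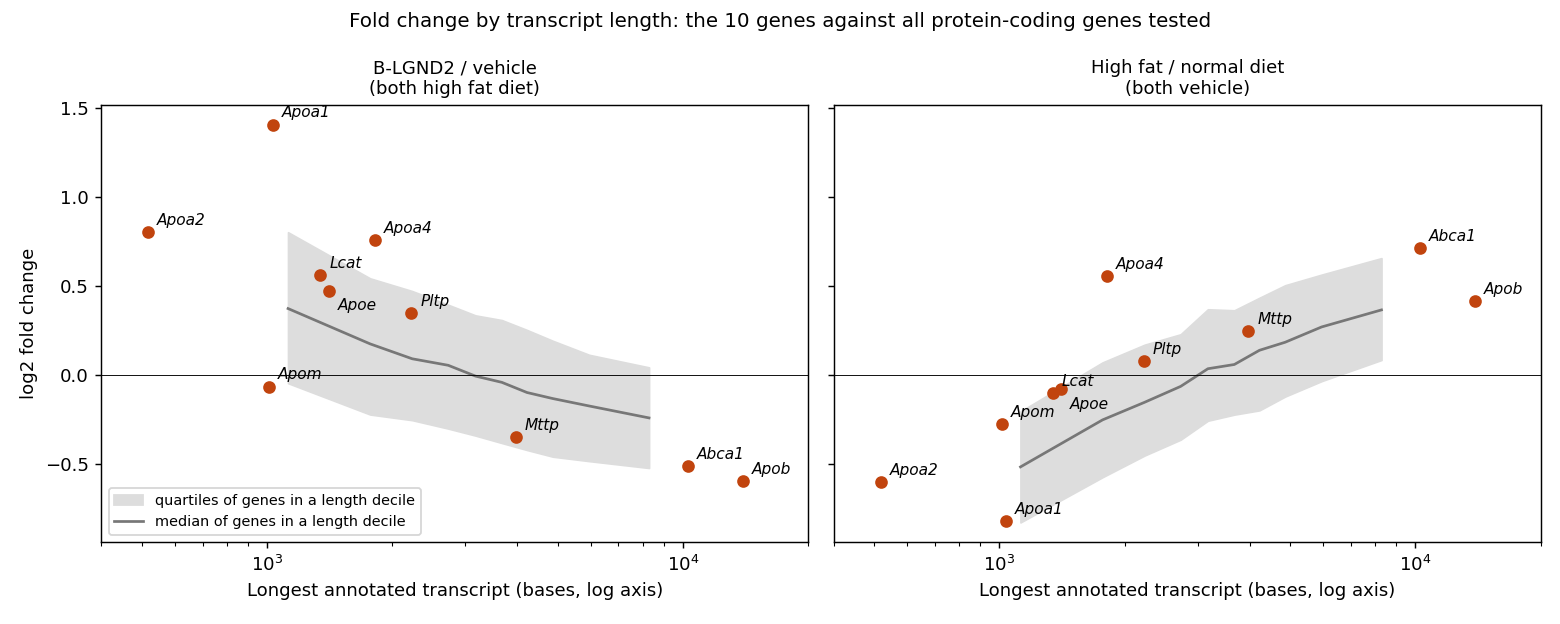
Log2 fold change (vertical axis) against the longest annotated transcript (horizontal log axis, bases) for the 10 genes (points), with the median (line) and quartiles (band) of protein-coding genes in 10 classes of length. The medians run from 0.37 to -0.24 for B-LGND2 and from -0.52 to 0.36 for diet, and in the left panel Apoa1, at 1.40, is higher than the band at any length.

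Among other genes of lipoprotein metabolism, 59 were placed in 5 lists and 57 were tested. For B-LGND2 against vehicle 3 rose and 1 fell, 7.02% of the 57, where 5.63% of all genes tested passed. With no scaling 2 rose and 3 fell, and with no filter on low counts 5 rose and 5 fell. Apoc2 and Apoc3, 2 of the 9 other apolipoproteins tested, rose. Apoc2 had 797, 490.1 and 694 CPM with B-LGND2, against 221, 236 and 224 CPM with vehicle, and 251, 261 and 542 CPM were measured on normal diet. Every B-LGND2 library was above every high fat vehicle library, and the lowest lay under the highest normal diet library. The log2 fold change for B-LGND2 against vehicle was 1.54 ± 0.29 (SE) with an adjusted p of 0.00829, and it passed in all 20 alternatives, with an adjusted p of at most 0.0475. Of the 813 exon bases of Apoc2, 646 are shared with the readthrough model Gm44805 on the same strand. No count was available for that model, and how reads in the shared bases were assigned was not tested. Apoc3, an inhibitor of triglyceride clearance that neighbours Apoa1, had 8437, 4764 and 7240.2 CPM with B-LGND2, against 3207, 2682 and 3161 CPM with vehicle. It rose by 1.18 ± 0.30 on the log2 scale (SE; adjusted p 0.0344), and was at 0.71 with an adjusted p of 0.0534 with length and GC offsets. Apoa5, at the other end of the cluster from Apoa1, had 6085, 4186 and 3512 CPM with B-LGND2 and 2479, 2536 and 3119 CPM with vehicle and did not pass (0.76, adjusted p 0.0957). The median of the 9 was 0.54 for B-LGND2 against vehicle and -0.51 for diet, beside -0.0031 and 0.0054 over all genes tested. Their longest transcripts ran from 532 bases (Apoc1) to 2515 bases (Apoa5), so they span more than 1 length class. The class medians were 0.37 and -0.52 in the shortest class (median length 1124 bases). They were 0.17 and -0.25 in the second (1770.5 bases) and 0.090 and -0.15 in the third (2235 bases). The part of length in the medians of this list was not tested.

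Among 14 partners of VLDL assembly 1 gene fell with B-LGND2, A1cf, whose product guides the editing of Apob mRNA. A1cf had 23.3, 48.8 and 43 CPM with B-LGND2 on high fat diet, 90.9, 120.3 and 104 CPM in high fat vehicle livers, and 68.3, 37.2 and 24.8 CPM on normal diet. Both comparisons rest on the high fat vehicle libraries, which were the highest of the 9. The log2 fold change was -1.46 ± 0.33 (SE; adjusted p 0.0232) for B-LGND2 and 1.27 ± 0.33 (SE; adjusted p 0.0493) for diet, and 15 and 6 of the 20 alternatives kept these calls. Tm6sf2, a gene that acts in lipid loading of VLDL, had 33.7, 32.7 and 31.6 CPM with B-LGND2, 18.6, 22 and 19.2 CPM in high fat vehicle livers, and 30.1, 31.6 and 33.9 CPM on normal diet. It did not pass in either comparison (adjusted p 0.0576 for B-LGND2 and 0.0807 for diet), although no high fat vehicle library overlapped another group. Pdia3, an isomerase of the endoplasmic reticulum, did not pass (-0.13 for B-LGND2 and -0.72 for diet).

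For HDL remodelling and receptors 0 of 11 genes passed for B-LGND2 against vehicle or for diet. Naxe, whose product binds apolipoprotein A-I, fell in B-LGND2 livers against normal diet livers, with 19.9, 27.2 and 25.3 CPM against 41.5, 40.7 and 62.8 CPM (-1.0 on the log2 scale, adjusted p 0.0321), a call kept in 8 of 20 alternatives. Scarb1, the HDL receptor, had 223 ± 54.4 CPM with B-LGND2 on high fat diet and 129 ± 7.86 CPM on normal diet (SD, n = 3 each) and did not pass (adjusted p 0.0605), nor did the endothelial lipase gene Lipg for diet (1.44, adjusted p 0.0751). In the list of lipoprotein uptake Sdc1, a heparan sulfate proteoglycan that binds remnants, rose with B-LGND2 to 309.9 ± 36.7 CPM, against 188 ± 12.7 CPM with vehicle (adjusted p 0.047, kept in 8 of 20 alternatives). Lrp1, a receptor for remnant particles, did not pass (adjusted p 0.0599 for diet).

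Of 16 regulators 0 passed for B-LGND2 against vehicle and 3 rose on high fat diet. Over the 5 lists 4 of 57 genes passed for diet, 7.02%, where 2.99% of all genes did. Ppara, a nuclear receptor for fatty acids, had 212, 224 and 174 CPM on high fat diet, against 103, 101 and 47.2 CPM on normal diet (1.28 on the log2 scale, adjusted p 0.029). Foxo1, which insulin signalling restrains, had 98.5, 85.6 and 83.8 CPM on high fat diet, against 50.5, 55.1 and 41.8 CPM on normal diet (0.86, adjusted p 0.0366). Its value with length and GC offsets was 0.42 with an adjusted p of 0.268. Srebf1, a regulator of lipid synthesis, rose in B-LGND2 livers to 386 ± 50.4 CPM, against 186 ± 42.3 CPM in normal diet livers (SD, n = 3 each; adjusted p 0.0258). In that comparison 2 of the 57 passed, 3.51%, where 2.93% of all genes did, 1 higher and 1 lower, against 1 higher and 0 lower with no scaling.

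Leaving out any 1 of the 3 high fat vehicle libraries ended the calls of Apoc3, A1cf and Sdc1 for B-LGND2 against vehicle (adjusted p 0.0552 to 0.173). It also ended those of A1cf, Ppara and Foxo1 for diet (adjusted p 0.0739 to 0.174). In these settings 0.801% to 1.49% of all genes passed for B-LGND2 against vehicle and 0.28% to 0.529% for diet. With all libraries 5.63% and 2.99% did. Without B-LGND2 replicate 1 the adjusted p was 0.134 for Apoc3, 0.119 for A1cf and 0.125 for Sdc1 against vehicle. Of all genes, 1.08% then passed in that comparison. Against normal diet livers, without the same library, the adjusted p was 0.119 for Naxe and 0.0927 for Srebf1. Leaving out normal diet replicate 2 or 3 ended the diet calls of A1cf, Ppara and Foxo1 (adjusted p 0.0602 to 0.174). Of all genes, 0.712% and 0.637% then passed for diet. Without B-LGND2 replicate 1 and normal diet replicate 1, Apoc2 (1.40, adjusted p 0.0202) and A1cf (-1.18, 0.0194) passed for B-LGND2 against vehicle, and Apoc3 (1.01, 0.0566) and Sdc1 (0.63, 0.063) did not. For diet A1cf (1.75, 0.00264), Ppara (1.44, 0.0092) and Foxo1 (0.87, 0.0137) then passed, and between B-LGND2 and normal diet livers neither Naxe (-0.98, 0.054) nor Srebf1 (1.01, 0.0617) did.

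**Figure D5:**
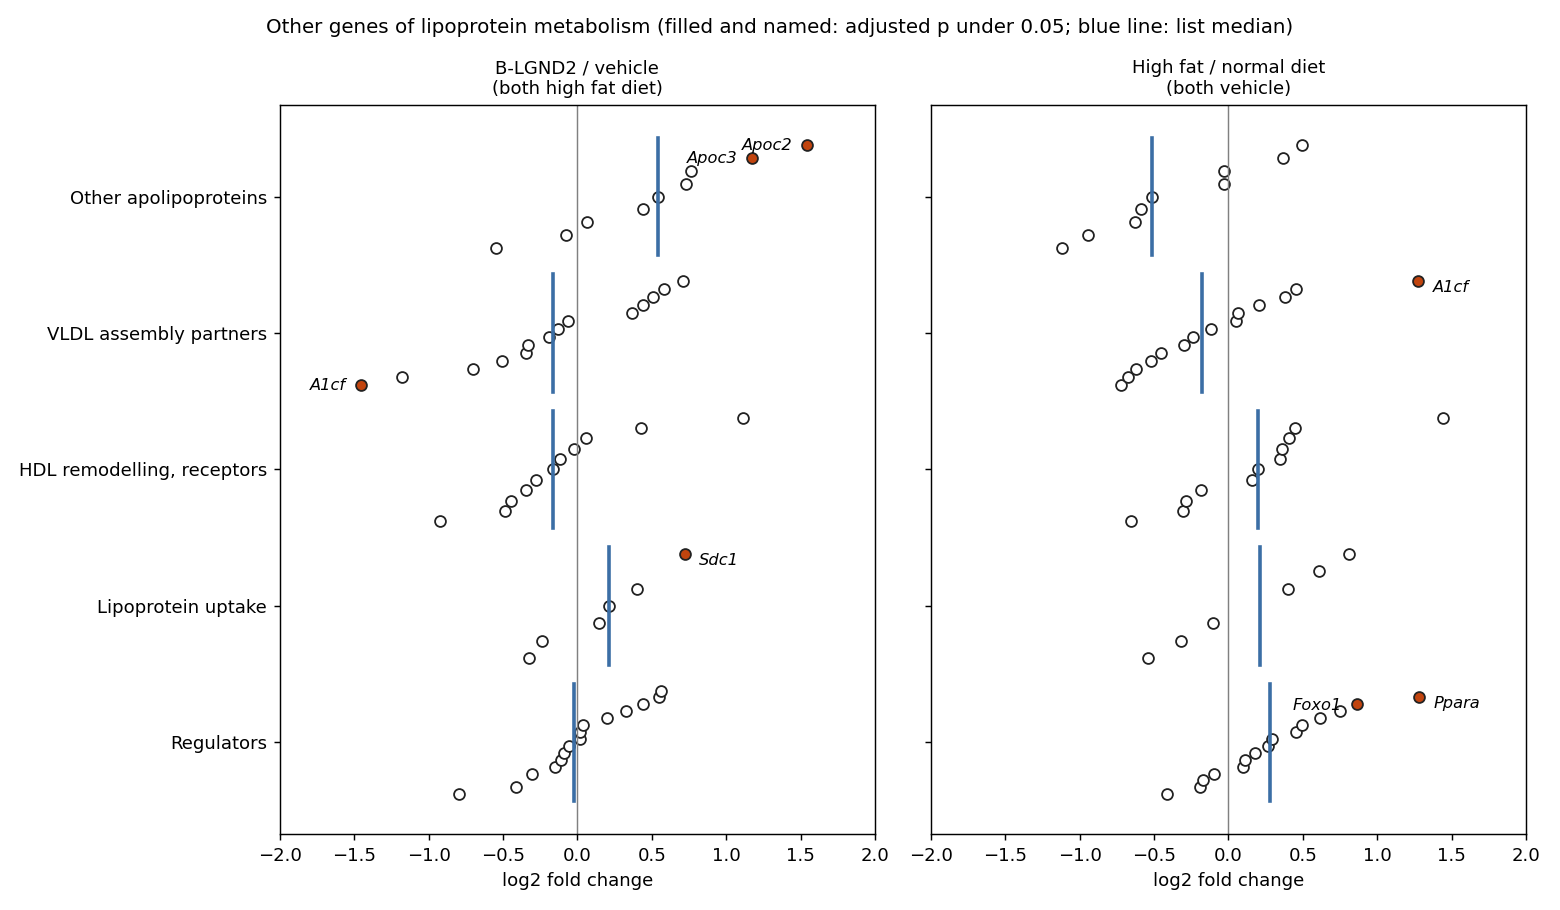
Log2 fold change (horizontal axes) of other genes tested, in 5 lists (rows; points are the genes reported here, blue lines the medians of the whole lists), for B-LGND2 against vehicle on high fat diet and for high fat against normal diet; filled and named genes have an adjusted p under 0.05. The median of other apolipoproteins is 0.54 in the left panel and -0.51 in the right.

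The labelled tissue was checked against marker genes. All 8 hepatocyte markers were detected, with summed levels of 46127 to 53705 CPM with B-LGND2, 57544 to 62973 CPM in high fat vehicle livers and 52265 to 56985 CPM on normal diet. For B-LGND2 against vehicle 0 of the 8 passed. Their median log2 fold change was 0.041, with 5 of the 8 above 0, so the lower sum was not shared by most markers. Macrophage markers moved with B-LGND2: 10 of 14 rose against vehicle on high fat diet (median 1.5 on the log2 scale). Of all genes tested 3.07% rose and 2.56% fell in that comparison, the shares to set beside each marker count here. The macrophage sum was 1273 to 1607 CPM with B-LGND2, 401 to 517 CPM in high fat vehicle livers and 407 to 657 CPM on normal diet. Macrophages also express Apoe, Abca1, Pltp and Apoc2, and the part of this shift in the differences of those genes, and of Apoa1, was not tested. In bulk liver, a change in the number of cells of a type and a change in RNA per cell cannot be told apart. Enterocytes also express Apoa1, Apoa4, Apob and Mttp. Their defining factors Cdx1 and Cdx2 were at 0 in all 9 libraries, and the 8 enterocyte markers summed to 54.3 to 95.2 CPM with B-LGND2, 42.9 to 57.6 CPM in high fat vehicle livers and 38.7 to 118 CPM on normal diet. Endothelial markers summed to 292 to 366 CPM with B-LGND2, 198 to 244 CPM in high fat vehicle livers and 213 to 276 CPM on normal diet, and 1 of 9 rose with B-LGND2 against vehicle. Stellate and erythroid markers passed in 0 of 8 and 0 of 5 for that comparison, and 1 of 3 cholangiocyte markers tested rose. Lymphocyte and adipocyte markers summed to at most 8.49 and 7.33 CPM in any library.

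Among 7300 protein-coding genes of at least 3 log2 CPM, those whose centred log2 levels lay nearest to Apoa1 over the 9 libraries were Cldn3, Fam221b and Znhit2. The root mean square distance was 0.180, 0.205 and 0.211 on the log2 scale. Cldn3, a tight junction protein, averaged 333 CPM with B-LGND2, 158 CPM in high fat vehicle livers and 233 CPM on normal diet.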

How the data were processed

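Per the labels' protocols, poly(A) RNA of 9 livers was prepared with the Ion Total RNAseq V2 kit and read on an Ion Torrent Proton. The submitters' processing notes name HTSeq 0.6.1p1, TopHat2 2.0.13 with Bowtie2 2.2.4, DESeq2 1.6.3, SAMtools 0.1.19 and the build GRCm38.p3. Strand setting and annotation release were not given in the sources used here. Raw read counts per gene were deposited by the authors, as whole numbers for 45513 Ensembl IDs in 9 libraries. Symbols, coordinates and lengths came from GENCODE M21 (44671 IDs matched, 842 did not).

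The counts were fitted in R 4.3.3 with edgeR 4.0.16: filterByExpr (minimum count 10, 12102 genes kept), TMM scaling, and 1 robust quasi-likelihood model of 3 groups over all 9 libraries (6 residual degrees of freedom). There were 3 two-sided contrasts, each with Benjamini-Hochberg adjustment over all genes tested and a threshold of 0.05. TPM used the summed exon length. The script was tested on simulated data. The labels state no pairing, and the libraries were not treated as paired by number. Chi-square per degree of freedom was at least 11.8 for every pair of libraries, so none was a duplicate. PCR reads without molecular identifiers are not independent molecules.

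The 10 genes, the other lists and the markers were chosen with earlier results of these data known, so no list is independent support. Named by rule were all 10 genes, each list's genes that passed in any contrast, filled to 3 by smallest p, and the 3 genes nearest to Apoa1. Some genes that this rule names are not reported here. Apoa5 was named as a neighbour after its values were seen. Alternatives were DESeq2 1.42.0 (size factors, Wald test), other filters and scaling, offsets from mgcv 1.9.3 smooths of length and GC, rRNA and mitochondrial genes removed, only 2 groups, the replicate block, and each library left out. Leaving out B-LGND2 replicate 1 and normal diet replicate 1 together was added after the data were seen.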

Additional observations from a re-analysis of the deposited data

How the results depend on the processing

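Of 800 alternative values for 40 single-gene results, 680 kept their direction and side of the threshold, 84 lost a call, 13 gained one and 23 changed sign. Apoa1 for B-LGND2 against vehicle stayed positive in all 20 alternatives and passed in 14; it did not pass with the replicate block (1.29, adjusted p 0.0531).

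Counts of the 10 genes that passed were 3 (no filter), 2 (DESeq2), 0 (replicate block) and 0 (B-LGND2 replicate 1 and normal diet replicate 1 left out, called both libraries here) for B-LGND2 against vehicle, where the reported count was 1, and 0 to 1 with 1 library left out. For diet (reported 0) they were 1 with no filter, 4 with both libraries out, and 0 to 1 with 1 library out. Between B-LGND2 and normal diet livers, the third comparison (reported 0), they were 1 with no scaling, 1 with no filter, 1 with DESeq2, and 0 to 1 with 1 library out. Counts over the 57 other genes for B-LGND2 against vehicle (reported 4, 3 higher and 1 lower) were 10 with no filter (5 and 5), 5 with no scaling (2 and 3), 9 with DESeq2, 9 with only 2 groups, 2 with both libraries out, and 1 to 9 with 1 library out. For diet (reported 4) they were 8 with no filter, 10 with DESeq2, 2 with the replicate block, 2 with offsets, 0 with only 2 groups, 16 with both libraries out, and 0 to 10 with 1 library out. For the third comparison (reported 2) they were 1 with no scaling, 7 with no filter, 8 with DESeq2, 1 with the block, 0 with only 2 groups, and 0 to 6 with 1 library out. Shares of all genes tested that passed moved too. For B-LGND2 against vehicle the share was 6.25% with no filter, 5.61% with no scaling, 9.28% with DESeq2 and 4.07% with the block. It was 12.1% with only 2 groups, 3.37% with both libraries out and 0.801% to 11.6% with 1 out. For diet it was 5.49% with no filter, 7.65% with DESeq2, 1.68% with the block and 2.22% with offsets. It was 1.31% with only 2 groups, 19.4% with both libraries out and 0.28% to 15% with 1 out. For the third comparison the share was 2.2% with no scaling, 3.49% with no filter and 5.45% with DESeq2. It was 2.09% with the block, 1.23% with only 2 groups, 2.76% with both libraries out and 0.888% to 5.16% with 1 out. Without rRNA and mitochondrial genes the 10 genes took 9.26% of counts with B-LGND2, 6.18% on high fat diet with vehicle and 7.10% on normal diet. With 1 library out their shares of all counts, reported as 8.24%, 5.74% and 6.38%, were 6.77% to 9.05%, 5.56% to 5.84% and 6.05% to 6.54%.

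Signs changed, all in values that did not pass. For diet these were Apoe 0.090 and Lcat 0.067 with no scaling, Apom 0.018 and Lcat 0.084 with offsets, and Pltp -0.0053 with both libraries out; with 1 library out Apoe ran from -0.15 to 0.041, Lcat from -0.22 to 0.042 and Pltp from -0.38 to 0.37. For B-LGND2 against vehicle, Apom was 0.092 with both libraries out and ran from -0.31 to 0.10 with 1 out. For the third comparison, both libraries out gave Apoa1 -0.058, Apoa2 -0.31, Apob 0.48, Apoe -0.034, Mttp 0.041 and Lcat -0.021, offsets gave Abca1 -0.0099, and with 1 library out Apoa1 ran from -0.040 to 0.85, Apoa2 from -0.12 to 0.45 and Apob from -0.42 to 0.22. The cause was not tested.

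After each group's mean was subtracted from the log2 levels, same-numbered libraries of different groups correlated between -0.193 and 0.124. Libraries of different groups and other numbers correlated between -0.125 and 0.178. The labels state no pairing, and with 3 libraries a group these values cannot exclude it. With the replicate block 492 genes passed for B-LGND2 against vehicle, 203 for diet and 253 for the third comparison, against 681, 362 and 354. With 3 libraries a group, depth limits Pltp most, at 42 to 154 counts per library.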
